A study of Psammomys obesus with 8 samples.

Results

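The regions described here are contigs of fat sand rat DNA whose match to the mouse genome runs along nearly their whole length. A contig was kept when it held 400 bases or more, when its aligned length was at least 90% of its own length, and when the mouse chromosome was not MT, X or Y. The choice used sequence and position alone and no read count. It kept 34946 of the 548060 contigs in the table (6.38%), called conserved contigs below. Of 318414 contigs of at least 400 bases, 147444 had a mouse match and 35154 of those reached the aligned length. Among the latter, 200 matched X, 2 matched Y and 6 matched MT, and these 208 were left out. The mouse autosomes, 19 in number, held 34898 conserved contigs, and 48 matched patches or unplaced scaffolds.

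The libraries were made from hypothalamus DNA of males of Psammomys obesus at 16 weeks of age. This gerbil of arid land, the fat sand rat, becomes obese and diabetic on rich food. DNA carrying methylated CpG, a cytosine followed by a guanine, was pulled down with MethylMiner beads, which hold the methyl-CpG binding domain of the protein MBD2, and was then sequenced. The low-low group holds 4 libraries titled Low-Low lipid with the diet label Low lipid, and the standard-low group holds 4 titled Standard-Low lipid with the diet label Standard Lipid. The series states that offspring of fathers on different diets were compared. The labels do not say which word of a title is the father's diet and which the offspring's, and they name no strain, father, litter or animal. Whether the 4 libraries of a group came from separate animals is therefore not known, and a p-value then weighs only how these libraries vary, which may be technical. Tissue labels could not be checked by expression, since captured DNA holds none.

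In mammals most CpG outside CpG islands carry methylation, which is copied at each cell division and is laid down through gene bodies as well as between genes. CpG islands, dense in CpG and often at promoters, are mostly free of it. Protein-coding exons change slowly between rodents, so long matches between a gerbil and a mouse gather in them, but they also fall in other slowly changing sequence and in shared repeats. Capture with a methyl-CpG binding domain pulls down more DNA where more methylated CpG lie close together, so a count reads methylation, CpG number and amount of DNA at once. No input libraries were used here, and these cannot be told apart.

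Stretches of 5 conserved contigs are printed to show what such a region looks like, from CpG-poor to CpG-rich. All 5 lie inside a mouse gene and have a reading frame without a stop along the whole contig, and they were chosen after their values were seen. Mecom and Zbtb6 are the open contigs most alike to mouse, Hspa1b and Olfr1378 hold the most and the fewest CpG per base among open contigs inside genes, and Nbeal2 is the open contig with the lowest p between groups among those not called. Mouse positions are those in the table, and the mouse build is not given in the sources at hand. Sequences are the deposited contig strand, 5′ to 3′, with every CpG in capitals, over the stretch of the contig with the most CpG.
Mecom, contig 272596: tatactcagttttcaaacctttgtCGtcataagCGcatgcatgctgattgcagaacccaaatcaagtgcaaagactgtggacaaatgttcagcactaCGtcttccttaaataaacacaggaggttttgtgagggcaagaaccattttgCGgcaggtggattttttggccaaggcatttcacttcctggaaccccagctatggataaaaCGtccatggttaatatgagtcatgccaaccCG
Zbtb6, contig 4083077: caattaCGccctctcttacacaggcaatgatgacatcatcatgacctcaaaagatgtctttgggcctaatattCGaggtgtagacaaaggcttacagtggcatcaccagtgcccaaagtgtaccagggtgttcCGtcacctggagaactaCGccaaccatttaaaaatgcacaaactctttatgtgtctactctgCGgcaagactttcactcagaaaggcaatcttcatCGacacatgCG
Hspa1b, contig 1558375: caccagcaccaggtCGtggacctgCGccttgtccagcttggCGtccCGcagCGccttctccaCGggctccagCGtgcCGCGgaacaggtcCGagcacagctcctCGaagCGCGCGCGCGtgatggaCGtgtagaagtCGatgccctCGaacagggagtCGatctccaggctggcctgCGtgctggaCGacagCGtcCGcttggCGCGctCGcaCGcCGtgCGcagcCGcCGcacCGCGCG
Olfr1378, contig 2120746: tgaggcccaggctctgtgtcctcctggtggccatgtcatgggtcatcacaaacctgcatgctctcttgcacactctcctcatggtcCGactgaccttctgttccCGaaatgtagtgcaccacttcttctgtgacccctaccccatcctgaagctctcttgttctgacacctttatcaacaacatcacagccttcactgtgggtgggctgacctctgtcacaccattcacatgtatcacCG
Nbeal2, contig 3467912: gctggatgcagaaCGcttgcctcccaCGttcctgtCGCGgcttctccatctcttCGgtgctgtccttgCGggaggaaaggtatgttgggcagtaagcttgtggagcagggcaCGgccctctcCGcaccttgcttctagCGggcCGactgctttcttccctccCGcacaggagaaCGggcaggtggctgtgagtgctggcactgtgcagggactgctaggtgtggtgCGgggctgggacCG
The Mecom stretch is bases 64 to 303 of a contig matching chr3:29980600-29981000 on the minus strand, with 6 CpG in the contig. Mecom encodes a zinc finger transcription factor of blood stem cells. The Zbtb6 stretch is bases 6 to 245 of a contig matching chr2:37435873-37436281 on the minus strand, with 8 CpG. Zbtb6 is a BTB zinc finger gene. The Hspa1b stretch is bases 243 to 482 of a contig matching chr17:34957755-34958472 on the plus strand, with 87 CpG. Hspa1b encodes an inducible heat shock protein, and since Hspa1a is a near-identical copy, reads of either cannot be assigned with certainty. The Olfr1378 stretch is bases 28 to 267 of a contig matching chr11:50969399-50969897 on the plus strand, with 5 CpG. Olfr1378 is an odorant receptor gene. The Nbeal2 stretch is bases 100 to 339 of a contig matching chr9:110641992-110642561 on the minus strand, with 25 CpG. Nbeal2 encodes a large protein needed for the granules of platelets.

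These contigs differ in capture level, given here as CPM, counts rescaled to one library size, per kb of contig. Values for single libraries always stand in the order of replicates 1 to 4. Hspa1b had 36, 46, 29 and 41 counts in low-low against 27, 36, 37 and 25 in standard-low, a mean level of 3.86 CPM per kb. Zbtb6 had 27, 34, 33 and 30 in low-low against 36, 33, 33 and 35 in standard-low, or 6.45 CPM per kb. Olfr1378 had 16, 15, 10 and 9 against 15, 9, 8 and 9, or 1.83 CPM per kb. Mecom had 12, 12, 16 and 11 against 13, 18, 11 and 18, or 2.81 CPM per kb. Scaled to CPM, all standard-low libraries lay above all low-low libraries in Zbtb6, and the groups overlapped in the other 3 contigs. None of the 4 was called between the groups (edgeR quasi-likelihood test, Benjamini-Hochberg adjusted p of at least 0.931). Hspa1b, with the most CpG of the 4, was captured less per kb than Zbtb6.

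Table totals ran from 11646180 to 13533441 counts per library, and conserved contigs held 883573 to 1042984 of them. The lowest sum over the 8 libraries was 81 counts, among conserved contigs as in the whole table, so the table holds only contigs above a minimum and the level of low contigs is bounded from below. Each conserved contig passed the minimum mean of 10 counts per library, and the highest summed count among them was 1822. The replicate variance divided by the mean averaged 1.14 in low-low against 1.82 in standard-low over conserved contigs, with 1.15 and 1.78 in the other mouse-matched contigs. The variance was taken after scaling to the mean size of all 8 libraries, and the mean before it. This lowers the measure in the larger low-low libraries and raises it in standard-low, so pure counting noise would not give 1 in either group. How much of the gap between the groups this makes was not computed.

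Per aligned base, the conserved contigs did not have the highest median score against mouse. Their median aligned length was 100.3% of contig length, where gaps count, against 26.6% in the 109010 other mouse-matched autosomal contigs of at least 400 bases. The rule itself set this gap, since it kept contigs by aligned length. The alignment score per aligned base, in bits, had a median of 0.836 in conserved contigs and 1.01 in those other contigs. The shorter matches outside the set thus scored higher per aligned base on the median. This score leaves out the unaligned part of a contig, which outside the set was on the median most of its length. It therefore does not rank whole contigs by likeness to mouse. Conserved contigs at the 5th and 95th percentiles had 0.410 and 1.42 bits per base, and the highest, inside Nptn, had 1.85. Nptn encodes neuroplastin, a cell adhesion protein of synapses, and its contig was followed by contigs inside Puf60, an RNA splicing factor (1.84), and Ccar1, a cell cycle regulator (1.84). Around the length threshold, 1051 contigs with 89 to 90% aligned had a median level of 3.09 CPM per kb and 1047 with 90 to 91% had 2.92.

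By the table's mouse positions, 67.1% of conserved contigs (23437) lay inside a gene, against 57.4% of other matched contigs. A further 631 lay within 2 kb of a gene, 5936 from 2 to 50 kb away and 4899 beyond 50 kb, and 43 had no gene given. Whether a match falls in an exon, an intron or a UTR was not analysed here. The 23437 contigs lay in 9798 genes, of which 5158 held a single conserved contig and 271 held 10 or more. Of these gene symbols, 7192 (73.4%) also stand in the RefSeq gene table of the sand rat assembly mPsaObe1. Conserved contigs together covered 22.3 Mb of mouse sequence, and 126 of them shared at least 50% of the shorter mouse interval with another.

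The genes with the most conserved contigs were long. Gm20388, a predicted locus, held 62 spread over chr8:119964472-124227218, Wwox, a tumour suppressor gene at a fragile site, held 59, and Rora, a nuclear receptor gene, held 53. Wwox contigs summed to 117.4, 116.9, 112.9 and 120.0 CPM in low-low against 118.1, 116.2, 116.6 and 114.2 in standard-low. Rora contigs summed to 91.3, 92.6, 87.9 and 90.7 CPM in low-low against 89.2, 93.5, 94.2 and 93.8 in standard-low. The groups overlapped in both genes, with means of 116.8 ± 2.93 against 116.3 ± 1.58 CPM in Wwox (SD, n = 4) and 90.6 ± 1.99 against 92.7 ± 2.36 in Rora. Gm20388 contigs summed to 144.7 ± 5.97 CPM in low-low against 132.7 ± 19.2 in standard-low, with standard-low libraries ranging from 109.9 to 154.7. Ttn, which encodes the giant muscle protein titin, held 47 conserved contigs, of which 10 had an open frame.

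Open reading frames were more frequent among conserved contigs than among the others. A contig was called open when at least 1 of its 6 reading frames held no stop codon from end to end. This was so for 2348 conserved contigs (6.72%), for 977 other matched contigs (0.896%) and for 2091 of the 170970 contigs of at least 400 bases without a mouse match (1.22%). Among contigs of at least 600 bases, where a frame has more codons in which to meet a stop, the shares were 5.66%, 0.211% and 0.307%. Most open conserved contigs (95.4%) lay inside a mouse gene, against 65.0% of conserved contigs without an open frame. The share was larger the more alike the contig was to mouse. From the bin of conserved contigs with the fewest bits per base to the bin with the most, 0.962%, 1.87%, 4.57% and 19.5% were open. These shares describe fixed sequences and carry no test.

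**Figure D1:**
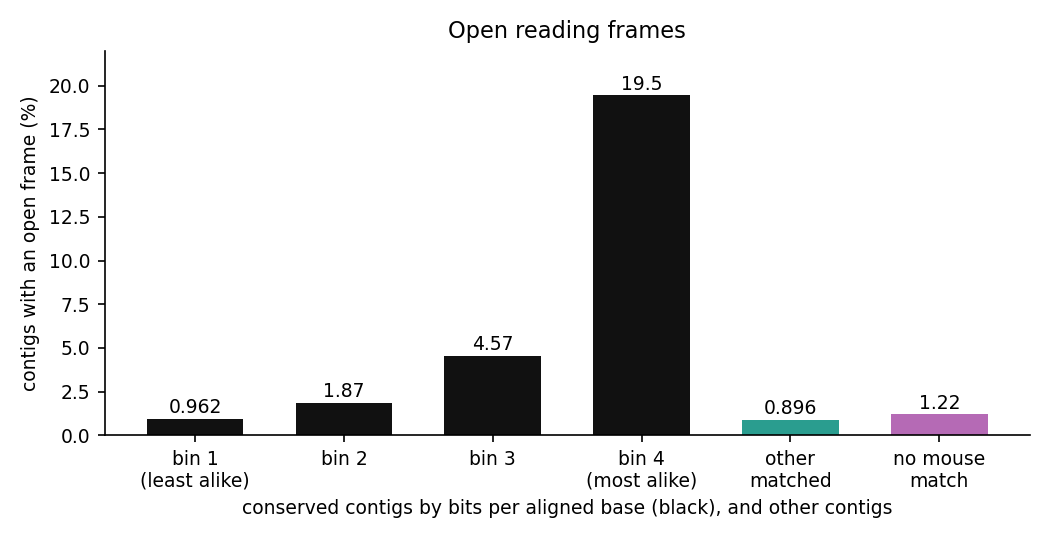
Share of contigs with an open frame, in percent, for the conserved contigs split into 4 bins of equal size by bits per aligned base (black bars) and for other mouse-matched and unmatched contigs of at least 400 bases. The share reaches 19.5% in the most alike bin and is 0.896% and 1.22% in the other kinds.

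Families of genes differed widely in how many of their conserved contigs were open, here among the lists with at least 40 such contigs. Of 85 conserved contigs in protocadherin genes, cadherin-like adhesion molecules with very large exons, 46 were open (54.1%). Of 215 in olfactory and vomeronasal receptor genes, 109 were open (50.7%). DNA methylation and chromatin machinery followed with 31 of 79 (39.2%), zinc finger genes with 108 of 369 (29.3%), imprinted genes with 11 of 51 (21.6%) and giant or large-exon structural genes with 75 of 358 (20.9%). At the low end stood axon guidance and adhesion genes with 18 of 370 (4.86%). Among these lists the median alignment score was highest in the same 2 families, with 1.27 bits per base in the receptor genes, 1.23 in protocadherins, followed by 1.13 in zinc finger genes.

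The 4 longest matches lay inside genes. A contig of 3434 bases inside Tdrd6, a germ cell gene, was 91.5% aligned and had 193, 193, 204 and 239 counts in low-low against 179, 156, 171 and 180 in standard-low. One of 2922 bases inside Prune2, a gene expressed in neurons, had 210, 222, 226 and 243 against 188, 140, 195 and 195. One of 2964 bases inside Ank3, which encodes ankyrin-G of the axon initial segment, had 169, 207, 199 and 205 against 128, 146, 210 and 152. One of 2924 bases inside Rbp3, a retinoid-binding protein gene of the eye, had 231, 242, 196 and 211 against 177, 167, 228 and 167. The last 3 had an open frame over their whole length. Before scaling, standard-low counts lay below all low-low counts in the Tdrd6 and Prune2 contigs, but in CPM the groups overlapped in all 4 contigs, and their adjusted p in the edgeR test was at least 0.912.

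Few conserved contigs were found to resemble others in the table. By BLAST in megablast mode, 1075 (3.08%) had at least 1 other contig with 80% identity or more over at least 100 bases. Of these, 209 had at least 10 and 20 had at least 100. That mode starts from long identical stretches and can miss matches near 80% identity, so these counts are lower bounds. The median score of the 1075 was 0.787 bits per base, against 0.838 in those with no such copy, and their median level was 3.44 against 2.99 CPM per kb. Reads from such copies may be placed on either, so single counts in them are uncertain.

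Conserved contigs were captured slightly less per kb than other contigs of like length and CpG content. The median level was 3.005 CPM per kb in conserved contigs, 3.18 in other matched and 3.06 in unmatched contigs. In each of the 8 libraries the median of the conserved contigs lay below that of other matched contigs, with log2 ratios from -0.10 to -0.02 and a mean of -0.08 ± 0.02 (SD, n = 8). The 2-sided exact sign-flip permutation test over libraries gave p = 0.00781, the smallest it allows, and an adjusted p of 0.0109 over 14 such comparisons. Within classes of equal length and CpG density the mean ratio was -0.11, with the same p. Against unmatched contigs the ratio was -0.02 ± 0.02 (exact permutation p = 0.0234, adjusted 0.0298), negative in all libraries but 1, and -0.09 within classes. All libraries read the same contigs, so these tests weigh the spread between libraries and not that between contigs.

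The level differed more across CpG content than between kinds of contig. Conserved contigs held a median of 2.24 CpG per 100 bases, against 2.13 in other matched and 2.08 in unmatched contigs, and 560 (1.602%) were island-like by a GC content of at least 50% and an observed to expected CpG ratio of at least 0.6, against 0.763% and 0.851%. Across 4 bins of equal size of conserved contigs from CpG-poor to CpG-rich, the median level was 2.24, 2.82, 3.37 and 4.07 CPM per kb. The gain stopped above 4 to 5 CpG per 100 bases, where the median was 4.40, and beyond 6 it was 3.89 in 197 contigs. The Hspa1b contig printed above lies in that last class.

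**Figure D2:**
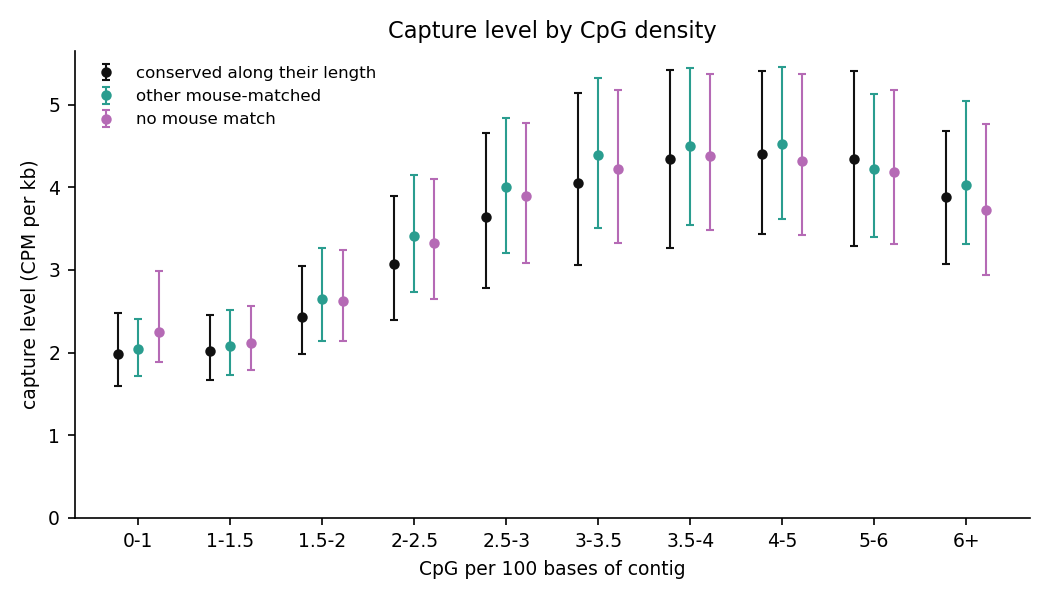
Median capture level in CPM per kb of contig (points; bars span the middle 50% of contigs) against CpG per 100 bases, for conserved, other mouse-matched and unmatched contigs. Conserved contigs go from 1.98 in the poorest class to 4.40 at 4 to 5 CpG per 100 bases and to 3.89 above 6.

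Open contigs and contigs inside genes stood above the other conserved contigs, also at equal CpG content. The median of open contigs was 1.39-fold that of the other conserved contigs (log2 ratio 0.47 ± 0.10, SD, n = 8), higher in 8 of 8 libraries, with exact permutation p = 0.00781 and adjusted p = 0.0109. Within classes of length and CpG density the ratio was 0.23 (1.17-fold), also in 8 of 8 libraries and with the same p values, over the 79.9% of open contigs that could be placed in a class. Conserved contigs inside genes were 1.28-fold those outside (log2 ratio 0.36 ± 0.07) and 1.19-fold within classes (0.25 ± 0.05), each in 8 of 8 libraries with p = 0.00781 by the exact permutation test and an adjusted p of 0.0109. Median levels were 3.30 CPM per kb inside genes, 2.62 within 2 kb, 2.62 from 2 to 50 kb and 2.46 beyond 50 kb. The classes did not hold GC content equal. Its median was 55.0% in open and 48.3% in other conserved contigs, and 50.1% inside and 46.5% outside genes. The part of GC content in these ratios was not tested.

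Likeness to mouse by itself did not go with a higher level once CpG content was held equal. The most alike bin had a log2 ratio of 0.13 ± 0.04 to the least alike bin (exact permutation p = 0.00781, adjusted 0.0109), but within classes of length and CpG the ratio was -0.03 (exact permutation p = 0.0312, adjusted 0.0337), negative in all libraries but 2. Without open contigs the ratio was 0.03 ± 0.04 (exact permutation p = 0.0625, adjusted 0.0625), and within classes -0.09 (exact permutation p = 0.00781, adjusted 0.0109). Open conserved contigs were 1.09-fold open contigs among the other matched ones, and 1.02-fold within classes, where 38.2% of them could be placed.

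Of the 6 conserved contigs with the highest level per kb, 5 lay inside a gene. A contig of 751 bases inside Adam1b, a sperm surface gene, reached 16.5 CPM per kb with 176, 175, 160 and 187 counts in low-low against 147, 118, 158 and 116 in standard-low. Its adjusted p was 0.893 in the edgeR test, and the groups overlapped. Contigs inside Lrrc37a, a leucine-rich repeat gene, at 15.4, nearest Nrbp2, a pseudokinase gene 12945 bases away, at 12.4, inside Cbr2, a carbonyl reductase gene, at 12.01, inside Gzf1, a zinc finger gene, at 11.8, and inside Olfr309, an odorant receptor gene, at 11.5 CPM per kb followed. The lowest were contigs inside Mier1, a chromatin regulator gene, at 0.843, nearest Cdc73, a subunit gene of the Paf complex, at 0.892, nearest 2610017I09Rik at 0.909 and inside Gm9889 at 0.920 CPM per kb. These lowest contigs lay at or near the table's lowest sum of 81 counts over the 8 libraries. They were 901 to 978 bases long, against a median of 589 in conserved contigs. A contig with fewer counts would not be in the table, so the low end per kb is bounded by contig length. None of the 10 contigs named here for their level was called between the groups (edgeR adjusted p of at least 0.756).

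Between the groups, 1 conserved contig of 34946 was called at an edgeR adjusted p under 0.05, or 0.00286%. Of all 548060 contigs, 147 were called (0.0268%), but the table also holds contigs too short for the rule. Among other contigs of at least 400 bases, 5 of 109010 matched (0.00459%) and 10 of 170970 unmatched ones (0.00585%) were called. These shares lie closer to that of conserved contigs, and so few calls cannot rank the kinds. The called conserved contig has no gene around it by mouse position. It matches chr1:60963877-60964352, 13575 bases from Icos, a costimulatory receptor gene of T cells. It had 0, 1, 3 and 0 counts in low-low against 0, 2, 3 and 165 in standard-low. Nearly all its counts thus came from standard-low library 4, the other 3 standard-low libraries lay within the low-low range, and the groups overlapped. The edgeR log2 fold change was 5.37 ± 0.81 (SE) with an adjusted p of 4.29e-05, limma voom gave an adjusted p of 0.908 and DESeq2 gave none. Without standard-low library 4 the contig fell under the minimum count and no conserved contig was called. The megablast search found no other contig in the table alike to it at 80% identity.

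Below the threshold, shares among conserved contigs lay near those of the table. At an unadjusted p under 0.05 stood 2186 (6.26%, against 5.68% of all contigs), of which 1135 were higher in standard-low (3.25%, against 2.93%) and 1051 lower (3.01%, against 2.76%). Groups did not overlap in CPM in 1193 (3.41%, against 3.24%), 645 with standard-low higher (1.85%, against 1.63%) and 548 with it lower (1.57%, against 1.61%). Their median log2 fold change was 0.01, and 50.8% were positive. DESeq2 and limma voom called 0 conserved contigs. In simulated counts over the 548060 contigs, the test recovered 6% of 1.5-fold, 52% of 2-fold and 100% of 4-fold and of 16-fold changes, with 7 unchanged contigs called. The simulated spread was set by the mean count alone, was the same in both groups and held no outlying library. The changed contigs came from the whole table, so recovery among conserved contigs in the real libraries may differ.

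The share of the table's counts in conserved contigs differed between groups by less than the spread between libraries. It was 7.61, 7.71, 7.72 and 7.71% in low-low against 7.68, 7.59, 7.82 and 7.51% in standard-low. The standard-low libraries include both the highest and the lowest share, and the groups overlap. The means were 7.69 ± 0.05% and 7.65 ± 0.13% (SD, n = 4; 2-sided exact permutation p = 0.6, adjusted 0.65 over 13 library measures). Of the counts in conserved contigs, open contigs held 8.76 ± 0.17% in low-low against 8.33 ± 0.41% in standard-low (exact permutation p = 0.114, adjusted 0.212). Contigs inside genes held 73.8 ± 0.34% and 72.8 ± 1.38% (exact permutation p = 0.171, adjusted 0.248).

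Split by CpG, the conserved contigs differed in direction from the poor to the rich end, without passing the test. The bin with the most CpG held 33.4, 35.2, 35.2 and 35.0% of their counts in low-low against 33.0, 30.0, 35.3 and 31.3% in standard-low. Standard-low 3 had the highest share of all and lay with low-low 2 to 4, the other 3 standard-low libraries were the lowest of all, and the groups overlapped. The means were 34.7 ± 0.86% and 32.4 ± 2.28% (exact permutation p = 0.143, adjusted 0.232). The log2 ratio of counts in the richest to the poorest bin was 0.98, 1.16, 1.14 and 1.13 in low-low against 0.93, 0.68, 1.14 and 0.76 in standard-low, a difference of -0.23 (exact permutation p = 0.0857, adjusted 0.186). Without standard-low 3 the difference was -0.32 (exact permutation p = 0.0286, the smallest that 4 against 3 can give here). Standard-low 3 was the only library of its group within the low-low range, so leaving it out fixed that p, which carries no support. The other fits that omit 1 library gave exact permutation p from 0.0857 to 0.2. The other mouse-matched contigs differed by -0.20 (exact permutation p = 0.0571, adjusted 0.186), and the gap between both kinds was -0.03 (exact permutation p = 0.343, adjusted 0.405).

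**Figure D3:**
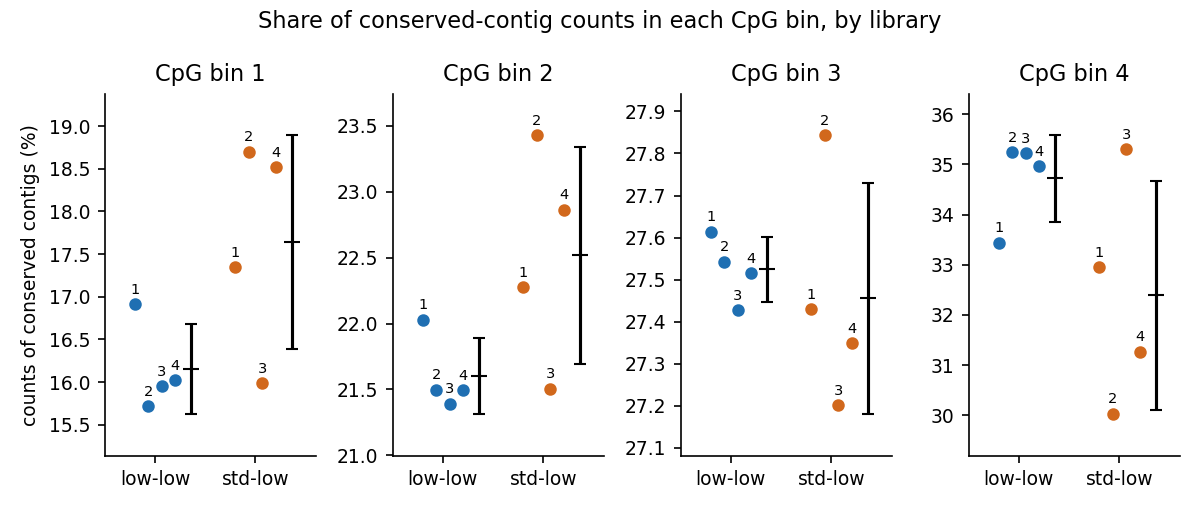
Percent of the counts in conserved contigs that fell in each of 4 equal bins by CpG per 100 bases, from the poorest (1) to the richest (4), for each library (points, numbered by replicate; std-low is standard-low; bars give mean and SD, n = 4; axes do not start at 0). In the richest bin standard-low 3 lies with the low-low libraries at 35.3%, and the other standard-low libraries range from 30.0 to 33.0%.

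The same slope runs through the fold changes of single contigs. From the CpG-poor to the CpG-rich bin of conserved contigs the median log2 fold change was 0.11, 0.05, -0.01 and -0.10. In the same classes it was 0.09, 0.02, -0.03 and -0.11 in other matched contigs and 0.10, 0.04, -0.01 and -0.09 in unmatched ones. At an unadjusted p under 0.05, 497 of the poorest bin were higher and 60 lower, with 332 and 130 in the second, 209 and 218 in the third, and 97 and 643 in the richest. In both directions together these were 6.38, 5.29, 4.89 and 8.47% of the bins, against 5.71, 4.64, 4.98 and 7.94% of other matched contigs in the same classes and 6.02, 4.80, 4.91 and 6.75% of unmatched ones. The direction was split likewise outside the set, with 1620 higher and 318 lower among 33958 other matched contigs of the poorest class and 145 and 1531 among 21102 of the richest. All contigs are read in the same 8 libraries, so these are not counts of independent events. Open contigs, which are richer in CpG (2.89 per 100 bases against 2.22), had a median of -0.07, with 43 higher and 149 lower at that p (8.18% of the 2348, against 5.68% of all contigs, of which 2.93% were higher and 2.76% lower). Table totals were also lower in standard-low, 11646180 to 12156525 against 12528388 to 13533441, and the GC content of the counted contigs was 50.4 ± 0.54% against 50.7 ± 0.09% (exact permutation p = 0.229, adjusted 0.297). The part of either in the slope was not tested.

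**Figure D4:**
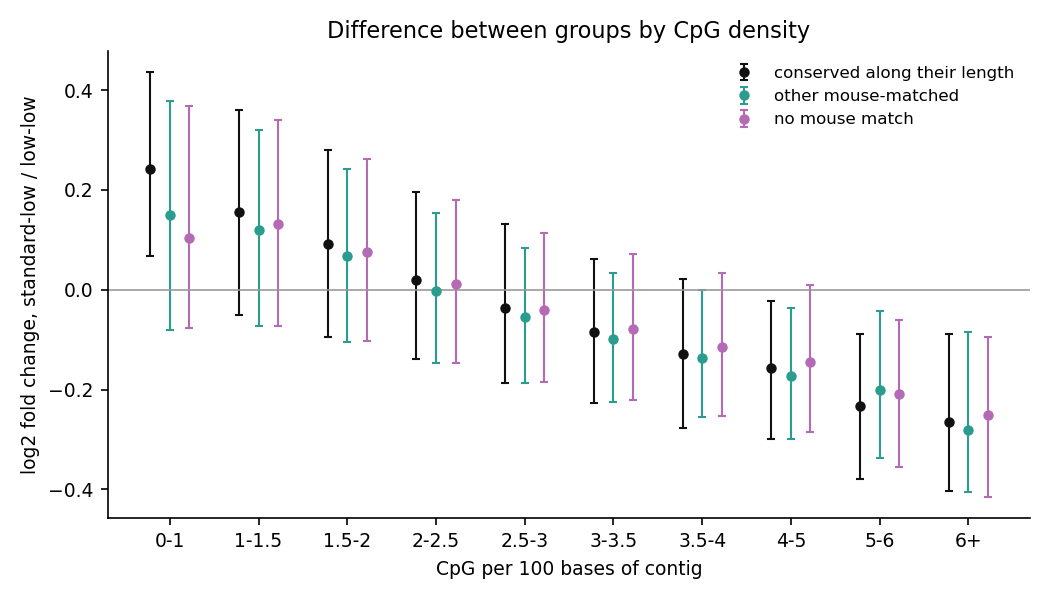
Median log2 fold change of standard-low over low-low from edgeR (points; bars span the middle 50% of contigs; 0 is no difference) against CpG per 100 bases, for conserved, other mouse-matched and unmatched contigs. Conserved contigs go from 0.24 in the poorest class (44 contigs) to -0.26 above 6 CpG per 100 bases, and the 3 kinds run side by side.

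After the called contig, the 4 conserved contigs with the lowest p had fewer counts in standard-low, and none passed the threshold. They were chosen after their values were seen. The Nbeal2 contig printed above had 67, 78, 72 and 60 counts in low-low against 34, 31, 54 and 23 in standard-low. All standard-low libraries lay below all low-low libraries, and standard-low 3 came closest. The means were 5.33 ± 0.57 and 2.99 ± 1.07 CPM (SD, n = 4), with a log2 fold change of -0.83 ± 0.19 (SE) and an adjusted p of 0.0761 in the edgeR test. Without standard-low 3 the adjusted p was 0.00162, and without standard-low 4 it was 0.652.

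A contig of 891 bases inside Gchfr, whose product holds back the enzyme that starts tetrahydrobiopterin synthesis, had 84, 70, 77 and 71 counts in low-low against 41, 45, 41 and 37 in standard-low. The 4 standard-low libraries sat close together and below all low-low libraries. The log2 fold change was -0.75 ± 0.17 (edgeR adjusted p = 0.0879). With 1 library left out the edgeR adjusted p ran from 0.0497 (standard-low 2) to 0.460 (low-low 3), and limma voom gave 0.231. A contig inside Gpr4, a proton-sensing receptor gene, had 45, 53, 47 and 44 against 21, 21, 29 and 21, with the groups apart and standard-low 3 the highest of its group. The log2 fold change was -0.90 ± 0.21 (edgeR adjusted p = 0.100). With 1 library left out the edgeR adjusted p ran from 0.0441 (standard-low 3) to 0.539 (low-low 2), and limma voom gave 0.263. A contig inside Sema3f, which encodes a secreted axon repellent, had 49, 60, 57 and 59 against 26, 25, 36 and 31, again apart, with a log2 fold change of -0.80 ± 0.19 (edgeR adjusted p = 0.156). These 4 contigs held 3.82 to 5.57 CpG per 100 bases, and so lay in the richest bin, whose median was itself below 0.

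Next in order stood a contig inside Smurf2 and one near Runx1, both with more counts in standard-low (edgeR adjusted p = 0.232 and 0.249) and with 1.88 and 2.31 CpG per 100 bases. They were followed by contigs inside Stab1, a scavenger receptor gene, with a log2 fold change of -0.59, inside Rpl15-ps3, a ribosomal pseudogene, with -0.88, nearest Gm9873 with 1.33 and inside Gm17029 with -0.68 (edgeR adjusted p from 0.253 to 0.316). The megablast search found no other contig in the table alike to the Rpl15-ps3 contig at 80% identity. The Gm9873 contig had 7, 5, 9 and 11 counts in low-low against 27, 21, 9 and 17 in standard-low. Standard-low 3 lay inside the low-low range there, so the groups overlapped. With 1 library left out the edgeR adjusted p ran from 0.0343 (standard-low 3) to 0.980 (low-low 2), and limma voom gave 0.891.

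**Figure D5:**
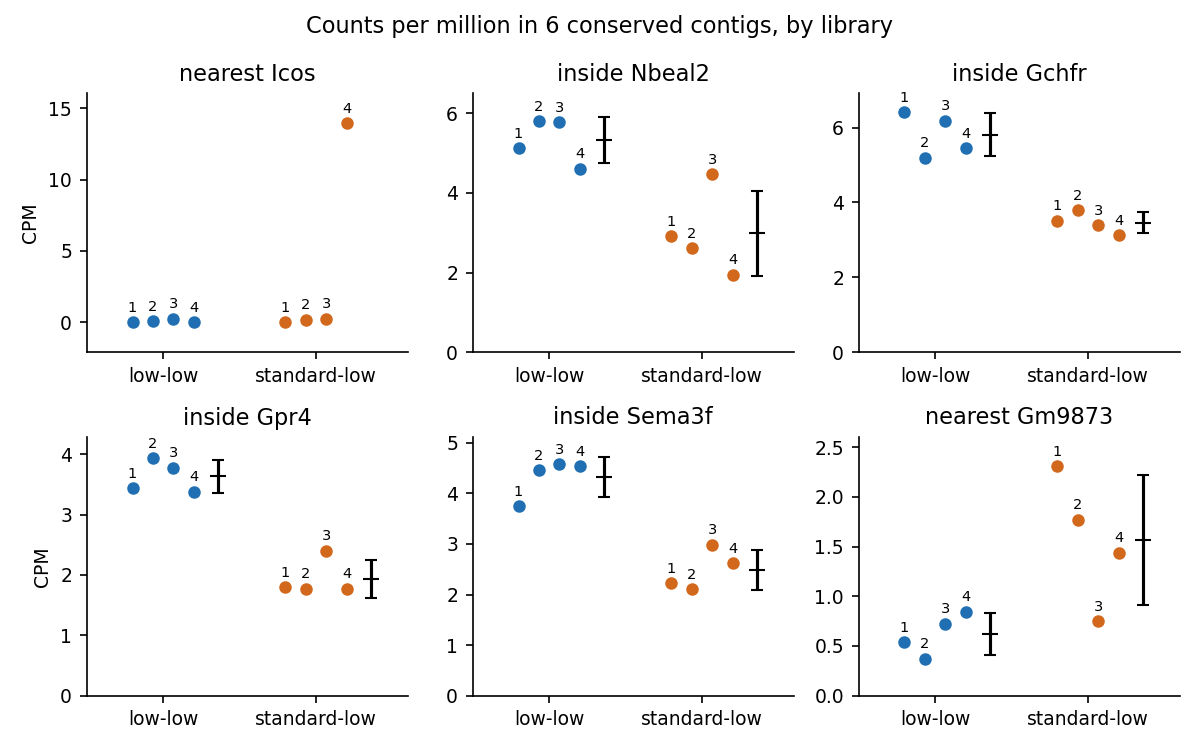
CPM in the called contig near Icos and in the 5 contigs named Nbeal2, Gchfr, Gpr4, Sema3f and Gm9873, for each library (points, numbered by replicate; bars give mean and SD, n = 4, and are left out for Icos). One library carries the Icos contig, at 13.9 CPM, and groups stand apart in Nbeal2, Gchfr, Gpr4 and Sema3f.

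The conserved contigs with the largest differences among those whose groups did not overlap held few counts and were not called. With standard-low higher, they were contigs inside Smurf2, a ubiquitin ligase gene (log2 fold change 1.32), Unc50 (1.32), Pip5k1a, a phosphoinositide kinase gene (1.27), and Pde8b, a cyclic AMP phosphodiesterase gene (1.27), one 10220 bases from Runx1, a blood transcription factor gene (1.45), and one 795076 bases from the nearest gene given, a 5S_rRNA copy (1.47). The Smurf2 contig had 11, 7, 9 and 6 counts in low-low against 11, 25, 17 and 23 in standard-low, where standard-low 1 was only just above the low-low libraries after scaling. With standard-low lower, they were contigs inside Adam12, a metalloprotease gene (-1.25), Lrp5, a Wnt coreceptor gene (-1.18), Brd1, a scaffold gene of histone acetylation (-1.06), Ano1, a chloride channel gene (-0.96), and Krt27, a hair keratin gene (-0.94), and one 51917 bases from Grik3, a kainate receptor gene (-0.96). The Lrp5 contig had 26, 14, 19 and 26 counts against 6, 9, 10 and 9, and the Brd1 contig 24, 16, 32 and 31 against 11, 9, 11 and 14. The edgeR adjusted p of these 12 lay between 0.232 and 0.690.

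A pattern of near absence in some libraries was defined as 3 counts or fewer in the lowest and 40 or more in the highest. This limit was set after the values were seen. It was met by 3 conserved contigs (0.00858%, against 0.0254% of all contigs). Among other contigs of at least 400 bases it was met by 0.00734% of matched and 0.00702% of unmatched ones, shares near that of conserved contigs. One of the 3 conserved contigs is the contig near Icos. A contig of 762 bases inside Wipf1, an actin regulator gene of blood cells, had 1, 1, 48 and 41 counts in low-low against 20, 36, 46 and 18 in standard-low. Low-low 1 and 2 were nearly empty and the other 6 libraries were not, so the split does not follow the groups (edgeR adjusted p = 0.913). A contig of 417 bases inside Trav9d-1, a T cell receptor segment gene, had 1, 2, 2 and 30 counts in low-low against 0, 0, 45 and 58 in standard-low. Low-low 4 and standard-low 3 and 4 carried it and the other 5 libraries hardly did. Its adjusted p was 0.596 in the edgeR test, 0.00174 without low-low 4 and 0.0137 without standard-low 2. It was not called in the other fits that omit 1 library. It has 1 alike contig elsewhere in the table, so its reads may be shared.

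Lists of genes gave no called contig among the conserved contigs inside them, with 0 in each of 19 lists. DESeq2 and limma voom called none either. At an unadjusted p under 0.05 stood 5.68% of all contigs. In lists of 40 contigs or more that share ran from 0% in appetite and energy balance genes to 13.3% in ribosomal protein genes. In lists of 79 or more it ran from 2.94% to 8.40%. In appetite and energy balance genes, 0 of 42 were at that p, in 18 of the 27 genes listed, with a median log2 fold change of -0.05. The most counted of these, inside Npy2r, a neuropeptide Y receptor gene, had 102, 92, 77 and 86 counts in low-low against 99, 92, 96 and 73 in standard-low. The groups overlapped (edgeR adjusted p = 0.952). Axon guidance and adhesion genes had 14 higher and 11 lower of 370, zinc finger genes 11 and 20 of 369, giant or large-exon genes 8 and 16 of 358, and potassium channel genes 4 and 12 of 220. Olfactory and vomeronasal receptor genes had 9 and 9 of 215, homeobox genes 4 and 1 of 170, glutamate and GABA receptor genes 3 and 4 of 137, protocadherins 2 and 2 of 85, and DNA methylation and chromatin machinery 2 and 1 of 79.

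Smaller lists gave few contigs. Imprinted genes had 3 higher and 0 lower of 51 (5.88%, against 5.68% of all contigs), and ribosomal protein genes 1 and 5 of 45 (13.3%). The ribosomal list takes every symbol of that prefix and so includes kinases such as Rps6ka4. Only 1 conserved contig lay in a histone gene, Hist2h2be. Neuron marker genes had 1 and 1 of 22 (9.09%), astrocyte markers 0 and 0 of 13, and oligodendrocyte markers 0 and 1 of 9 (11.1%). Microglia markers had 0 and 1 of 5 (20%), endothelium markers 1 and 1 of 4 (50%), and the ependyma and tanycyte markers 0 and 0 of 3. Beside the 5.68% of all contigs, these marker shares rest on very few contigs. Median log2 fold changes of the lists of 40 or more contigs lay between -0.05 and 0.04, where the median of all conserved contigs was 0.01. The contig inside Mbp, the myelin basic protein gene, had 59, 63, 60 and 60 counts in low-low against 37, 46, 52 and 56 in standard-low. In CPM the groups overlapped, since standard-low 4 lay among the low-low libraries (edgeR adjusted p = 0.939).

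Some of the most counted contigs of the lists lay in large brain genes. The contig of 1863 bases inside Nrxn2, a presynaptic adhesion gene, had 172, 184, 209 and 175 counts in low-low against 145, 95, 204 and 174 in standard-low, where standard-low 2 was far below the rest. The contig of 1970 bases inside Arid1b, a chromatin remodelling gene, had 118, 134, 152 and 158 against 139, 145, 149 and 138. That of 1003 bases inside Peg3, a paternally expressed zinc finger gene, had 68, 62, 75 and 56 against 64, 80, 45 and 55. The groups overlapped in all 3, and the edgeR adjusted p was at least 0.944.

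Across mouse autosomes the conserved share of matched contigs ran from 19.3% on chromosome 5 to 27.2% on chromosome 2. Chromosome 2 held the most conserved contigs, 3310, and chromosome 16 the fewest, 932. The median level ran from 2.75 CPM per kb on chromosome 13 to 3.25 on chromosome 15, and the median log2 fold change from -0.03 on chromosome 7 to 0.06 on chromosome 3. Chromosome 7 also had the highest median score, 0.903 bits per base.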

How the data were processed

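The authors deposited whole-number read counts per contig, which were used unscaled. FastQC and BWA were used, per the submitters' processing notes, and no source at hand gives their versions, the assembler or the mouse build. Per the file headers and contig names, a line holds a contig, its sequence, its mouse match and 8 counts. Library names were matched in header order, on which every library value rests.

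Contigs and lists were chosen with earlier results of these data known. Counts of all 548060 contigs were fitted in edgeR 4.0.16 (R 4.3.3; TMM, quasi-likelihood F test, minimum mean of 10 counts, which removed none) with Benjamini-Hochberg adjustment over all contigs at 0.05. CPM used totals times TMM factors. SDs are over libraries. Library measures used 2-sided exact permutation over 70 relabellings and levels exact sign flips over 256 patterns (scipy 1.17.1). Alike contigs came from BLAST 2.17.0 in megablast mode. Classes for equal length and CpG were added after seeing the data. Named were called contigs, the 6 largest changes each way with groups apart, the 6 highest and 4 lowest levels, the 4 longest alignments, the 3 genes with the most contigs, and the most counted contig of each list. Others are said to be chosen afterwards. Alternatives were DESeq2 1.42.0, limma 3.58.1 voom, other scalings, filters, thresholds of the rule, and leaving libraries out. The fit was tested on simulated counts.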

Additional observations from a re-analysis of the deposited data

Results flagged for a closer look

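Within groups of 4 libraries, 17 of 146 sets of values on conserved contigs had 1 library far from the other 3, where the gap to the nearest library took up an unusual share of the whole range. Chance gives about 1 in 20 in independent sets not chosen by their values. Many of these sets are contigs named for their values, or library measures that overlap, so the 17 cannot be read against that rate. Each such share follows, with the library where a single contig is meant.

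In low-low, the gap was 0.912 of the range for the percent of the table in conserved contigs, 0.835 for the share of their counts in the second of 4 CpG bins, 0.848 for that in the richest bin and 0.870 for the log2 ratio of CpG-rich to CpG-poor in the other matched contigs. Low-low 1 stood apart in all 4, at 7.61% against 7.71 to 7.72% in the first.

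The contig near Icos had a gap of 0.982 in standard-low, from standard-low 4. Standard-low 2 stood apart in contigs nearest 2610017I09Rik (0.834) and inside Prune2 (0.916), Aqp4 (0.841) and Ccar1 (0.962). Its Prune2 value was 11.8 CPM where the others had 16.1 to 16.5. Standard-low 1 stood apart in contigs near Grik3 (0.890) and inside Olfr309 (0.976) and Olfr1378 (0.843). Standard-low 3 stood apart in the contig inside Gpr4 (0.959), at 2.40 CPM against 1.77 to 1.80. Low-low 3 stood apart in contigs inside Nrxn2 (0.854), Rps6ka4 (0.852) and Mecom (0.836), and low-low 1 in the one inside Sema3f (0.858).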

How the results depend on the processing

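The count of called conserved contigs, 1, was 0 under DESeq2, limma voom, a minimum length of 600 bases and contigs inside genes only, and 0 to 10 over the fits that omit 1 library. Without standard-low 4 it was 0, without low-low 4 it was 2, without standard-low 2 it was 3 and without standard-low 3 it was 10. Those 10 were contigs inside Wdr24, Tead3, Zfp64, Por, Celsr1, Nbeal2 and Gpr4 with fewer counts in standard-low, and near Icos, Nrp2 and Gm9873 with more. Over all contigs the count of 147 was 32 under DESeq2, 50 under limma voom, 81 at a minimum mean of 20 counts and 64 to 201 with 1 library left out, the lowest without low-low 2 (64) and standard-low 4 (84). With the replicate number as a block, 3 conserved contigs were called (Icos, Trav9d-1 and Nbeal2) and 206 of all. Correlations of deviations between same-numbered libraries ran from -0.01 to 0.03. Standard-low 1, 2 and 3 each correlated best with the low-low library of the same number (0.0130, 0.0313 and 0.0273). Standard-low 4 correlated best with low-low 1 (0.0326). All these values are near 0, so whether the numbers pair the libraries was not settled.

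The difference in the share of counts in conserved contigs, -0.04 percentage points, lay between -0.0934 and 0.0101 with 1 library left out, and reversed without standard-low 4 (0.0101). The difference in the log2 ratio of CpG-rich to CpG-poor bins lay between -0.32 and -0.16, and passed 0.05 without standard-low 3 (-0.32). The level against unmatched contigs did not pass at 80% aligned (-0.015, exact permutation p = 0.0703) or with mean counts per kb (-0.0047, exact permutation p = 0.648). The cause of these changes was not tested. The other settings kept the direction and side of the threshold of the share, the ratio and both levels. The median log2 fold change, 0.0054, ran from -0.0045 to 0.019, within 1 replicate SD, and changed sign under limma voom, a minimum mean of 20 counts, a minimum length of 600 bases and without standard-low 3. The table's floor limits what low contigs can show. In counts simulated with the same spread in both groups, 2-fold changes were recovered in 52% of cases.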
